A study of Homo sapiens with 6 samples.

Results

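The genes described here build ribosomes, degrade and trim RNA in the exosome, or form RNA polymerases I and III. They were taken by name: every protein-coding gene whose symbol begins with UTP, NOP, NOL or RRP and a number, with EXOSC and a number, or with POLR1 or POLR3 and a letter. This gave 65 of the 35052 genes in the files. Of these, 62 carried such a symbol in GENCODE 29, and 3 (POLR1F, POLR1G and POLR1H) did so through their current symbols. A further 12 names that matched belonged to features that are not protein coding and were left out.

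The samples were 3 libraries of ATF3 knockout EoL-1 cells and 3 libraries of wild type EoL-1 cells. EoL-1 is a human cell line from an eosinophilic leukaemia, ATF3 is a stress-induced transcription factor of the ATF/CREB family, and the sample labels call the altered cells a knockout made with CRISPR/Cas9. The design text calls them a knockdown, and ATF3 mRNA was still detected in them, so the name used here is that of the labels. Both genotypes were grown in the same serum-supplemented medium, and the labels name no further treatment. They do not say whether the knockout cells were 1 clone or a pool, or whether replicates were separate cultures, so p-values here measure only the spread between these samples.

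Ribosomes are made in the nucleolus, where RNA polymerase I transcribes the long precursor of most ribosomal RNAs. The small subunit processome, a large particle that forms on this precursor with the U3 small nucleolar ribonucleoprotein (snoRNP), folds and cuts the part that becomes the small subunit, and a second set of factors matures the large subunit. RNA polymerase III makes the 5S ribosomal RNA and the transfer RNAs, and the RNA exosome trims precursor ends and destroys spacers and faulty RNA.

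The estimated reads per library lay between 26766103 and 30117281. ATF3 itself had 5.62, 8.33 and 4.52 CPM (reads scaled to library size) in the knockout libraries, against 22.9, 16.2 and 23.0 CPM in the wild-type libraries, a log2 change of -1.75 ± 0.25 (SE; adjusted p = 0.00981, edgeR), or 0.297 of the wild-type level. Wild-type replicate 2 lay nearest to the knockout libraries on the first principal component of all genes tested, which held 42.1% of the variance. The scores were 29.8, 35.5 and 21.0 in the knockout libraries and -37.9, -13.5 and -34.9 in the wild-type libraries. The labels give the cell type as eosinophil, but the eosinophil granule gene EPX and the surface markers SIGLEC8 and CCR3 reached at most 0.246 CPM in any library, and CLC, PRG3, IL5RA and GATA1 were listed at 0. A listing at 0 is not shown to be an absence, since AATF and ZNHIT3, which cells in general use, were also listed at 0 in every library. Of the 11 eosinophil markers 3 could be tested, and RNASE2 and RNASE3, paralogs that encode granule ribonucleases, were higher in knockout cells (adjusted p = 0.00810 each). The summed eosinophil list was 116 to 186 CPM in knockout libraries and 36.8 to 52.0 CPM in wild-type libraries. The summed neutrophil granule list was 246 to 565 CPM in knockout and 49.5 to 145 CPM in wild-type libraries, with MPO and S100A8 higher in knockout and ELANE, PRTN3, AZU1 and LTF at 0. Of the 7 genes of T, B and NK cells 3 were at 0 (CD3D, CD3E and MS4A1), and of the 3 tested none was called (1 at an unadjusted p under 0.05). The summed list overlapped between groups (155, 132 and 174 CPM in knockout, 122, 136 and 113.5 CPM in wild type), and most of it was NKG7, a cytotoxic granule gene. The red cell genes HBA1 and HBB were at 0. Of the 8 proliferation genes 7 were fitted lower in knockout cells, with a median log2 change of -0.21, and MCM6 alone was called (-0.42). The summed list overlapped between groups (1448, 1826 and 1478 CPM in knockout, 1745, 1870 and 1816 CPM in wild type). The part of these differences in the results below was not tested. In RNA from whole cultures, a change in every cell and a change in the mix of cells cannot be told apart.

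Knockout cells had less mRNA for a broad set of these genes. Of the 65 members, 63 had enough reads to be tested, and 20 of them fell while 4 rose at an adjusted p under 0.05 (edgeR quasi-likelihood test, Benjamini-Hochberg over all 13131 genes tested). Over all genes tested 9.72% were called lower, 11.4% were called higher and 21.1% were called in either direction, whereas 31.7% of the tested members were called lower and 6.35% higher. All genes split into 1494 higher and 1276 lower. Scaled by library totals alone they split into 1844 higher and 1013 lower, with 4 and 16 members, and with a GC trend removed into 1202 higher and 1550 lower, with 3 and 23 members. With the effective length offset, which corrects for the estimated mix of transcripts, 10 members were called lower and 1 higher, and 661 of all genes lower and 722 higher. The fitted change was below 0 for 51 of the 63, with a median of -0.16 on the log2 scale against 0.0054 for all genes. Every knockout library lay below every wild-type library for 35 of the 63 members (55.6%), against 21.4% of all genes tested. The changes were small: 4 members fell by more than 1.5-fold and 1 of them, RRP15, by more than 2-fold.

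Summed over the 65 members, the level was 4670, 4557 and 4863 CPM in knockout libraries and 5414, 5281 and 5411 CPM in wild-type libraries. The sums of the 2 genotypes did not overlap for the members as a whole, nor in any of the role groups below. Wild-type replicate 2 had the lowest wild-type sum, and it was also the wild-type library nearest to the knockouts for the 20 called lower. Their median position relative to the wild-type mean was -0.36, -0.45 and -0.32 (log2) in the knockout libraries and 0.036, -0.078 and 0.045 in the wild-type libraries. Replicates of a genotype were close to each other, with a median coefficient of variation over the tested members of 5.88% among knockout and 4.90% among wild-type libraries. The widest spread was that of UTP14C among knockout libraries (27.9%) and of NOL4L among wild-type libraries (14.8%).

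**Figure D1:**
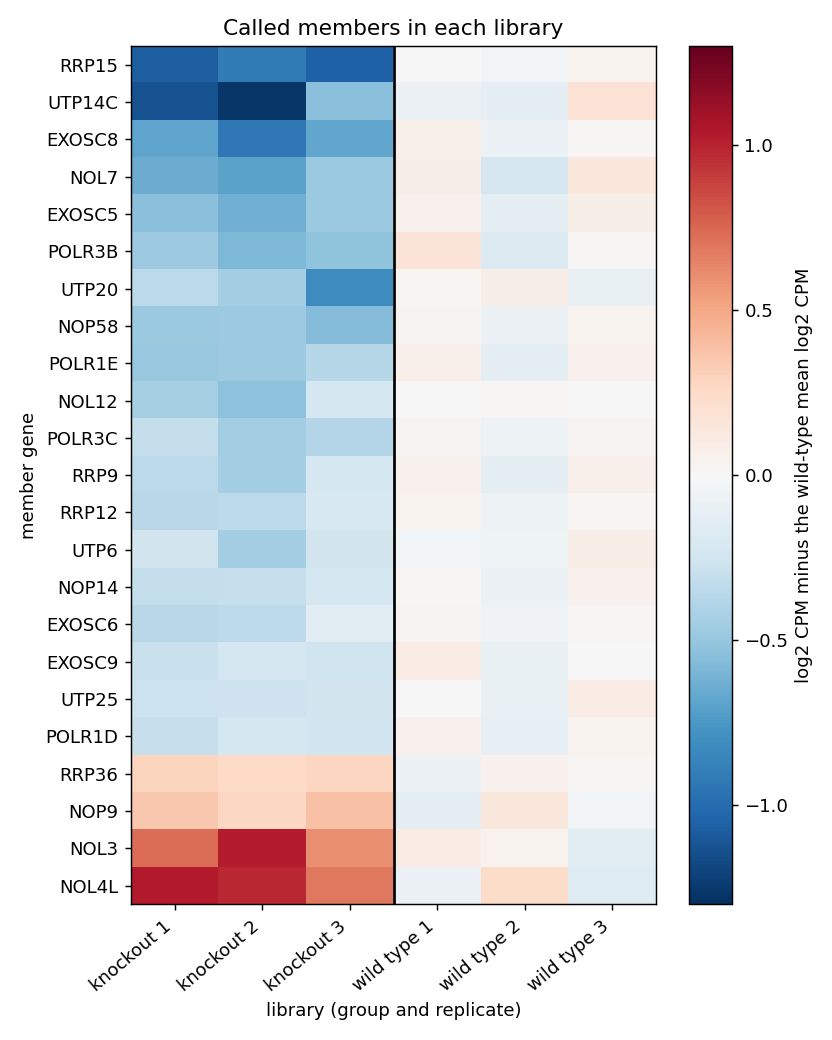
Heat map of 23 of the 24 called members (rows) in each library (columns, knockout left, wild type right), as log2 CPM minus the mean of the 3 wild-type libraries. The 19 lower members shown are blue in all 3 knockout libraries and the 4 higher members, at the bottom, are red there.

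The calls rested on few libraries. Without wild-type replicate 1 edgeR called 0 members, as it called 0 of all genes. In that fit 27 members had an unadjusted p under 0.05, 23 of them lower, and the smallest adjusted p was 0.0503. DESeq2 on the same 5 libraries called 15 members lower and 2 higher, against 27 and 4 with all 6. Of all genes, DESeq2 called 953 lower (4.84%) and 1077 higher with 5 libraries, and 1734 (8.68%) and 1848 with 6. Without wild-type replicate 3 edgeR called 3 members lower and 0 higher (27 at an unadjusted p under 0.05). Without knockout replicate 1, and likewise without knockout replicate 2, it called 9 lower and 1 higher. With knockout replicate 3 left out there were 21 lower and 3 higher, and with wild-type replicate 2 left out 18 lower and 3 higher. Of all genes, edgeR called 148 lower (1.1%) and 210 higher without wild-type replicate 3. These were 665 (4.96%) and 741 without knockout replicate 1, and 792 (5.91%) and 929 without knockout replicate 2. They were 1388 (10.4%) and 1370 without knockout replicate 3, and 1131 (8.46%) and 1342 without wild-type replicate 2. The direction of the 24 called members was the same in each of the 21 alternative fits, which reuse the same libraries. Since the groups overlapped for none of the 24, leaving out a library could hardly turn a sign. The kept direction is therefore not separate evidence. EXOSC8 and NOP58 passed the threshold in all of these fits but the edgeR fit without wild-type replicate 1, where their adjusted p were 0.0503 and 0.0510.

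**Figure D2:**
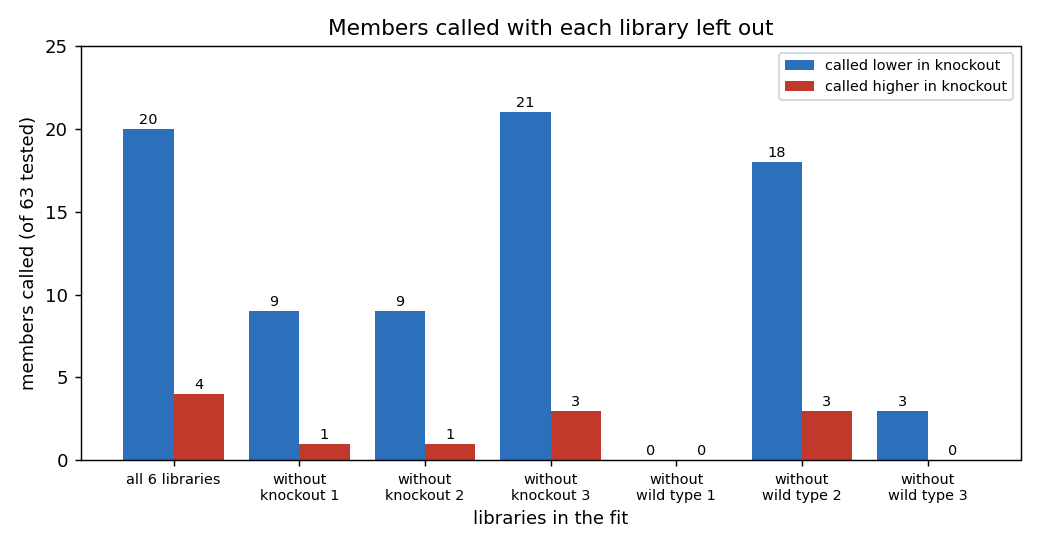
Bars give the number of the 63 tested members called lower (blue) and higher (red) in knockout cells with all 6 libraries and with each library left out in turn. The bars stand at 20 and 4 with all libraries, and at 0 and 0 without wild-type replicate 1.

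Promoter sequence was looked at because many members moved together. RefSeq windows (GRCh38.p14) from 250 bases before to 50 after the start site were held for 54 of the 65 members. Strings searched on both strands, none of which contains another, were CACGTG (the E-box read by MYC and related factors), TGACGTCA (the cAMP response element read by ATF/CREB proteins), TGACTCA (the AP-1 element), TGATGCAA (a composite element of C/EBP and ATF proteins) and CCGGAAG (an ETS core). CACGTG stood in 17 of the 54 windows (31.5%), against 10.1% of the 9878 windows of genes tested and 7.43% of all 27305 windows. It was in 7 of the 16 windows of members called lower (43.8%), in 10 of 32 windows of members not called (31.2%) and in 0 of 4 windows of members called higher. CCGGAAG was in 15 member windows (27.8%, against 19.8% of genes tested and 10.7% of all windows). TGACGTCA was in 3 (5.56%, against 3.18% and 1.98%), those of RRP1 and of the untested NOL4 and POLR1H. TGACTCA was in 2, EXOSC8 and UTP14C (3.70%, against 3.09% and 4.92%), and TGATGCAA in 0 (against 0.526% and 0.923%). A match is a description of letters, not a site of binding. The windows below are those of the 6 called members with the smallest p among those that hold a string searched, 5′ to 3′ on the strand of the gene, with every match in capitals (CTTCCGG and TGAGTCA are CCGGAAG and TGACTCA on the other strand).
RRP15 promoter (chr1:218285043-218285342, plus strand): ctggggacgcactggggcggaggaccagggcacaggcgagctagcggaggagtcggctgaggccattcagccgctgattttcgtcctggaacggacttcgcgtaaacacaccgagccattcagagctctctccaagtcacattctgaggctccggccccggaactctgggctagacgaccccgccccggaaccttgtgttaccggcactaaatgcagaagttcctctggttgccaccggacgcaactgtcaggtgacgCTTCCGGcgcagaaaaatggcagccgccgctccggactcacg
EXOSC8 promoter (chr13:37000536-37000835, plus strand): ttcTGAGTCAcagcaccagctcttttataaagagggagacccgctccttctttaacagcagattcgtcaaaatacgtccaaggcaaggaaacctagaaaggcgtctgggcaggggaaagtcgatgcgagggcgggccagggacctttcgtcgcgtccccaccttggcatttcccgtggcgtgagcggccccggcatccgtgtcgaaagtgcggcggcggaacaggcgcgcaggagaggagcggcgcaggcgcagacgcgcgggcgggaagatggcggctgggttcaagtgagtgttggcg
EXOSC5 promoter (chr19:41397310-41397609, minus strand): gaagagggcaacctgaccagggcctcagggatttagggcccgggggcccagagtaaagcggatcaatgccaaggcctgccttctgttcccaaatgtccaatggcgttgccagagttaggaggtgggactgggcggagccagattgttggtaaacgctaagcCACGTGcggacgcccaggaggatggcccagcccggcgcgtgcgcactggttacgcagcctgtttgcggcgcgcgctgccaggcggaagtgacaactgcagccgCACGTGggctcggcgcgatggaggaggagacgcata
POLR3C promoter (chr1:145823950-145824249, plus strand): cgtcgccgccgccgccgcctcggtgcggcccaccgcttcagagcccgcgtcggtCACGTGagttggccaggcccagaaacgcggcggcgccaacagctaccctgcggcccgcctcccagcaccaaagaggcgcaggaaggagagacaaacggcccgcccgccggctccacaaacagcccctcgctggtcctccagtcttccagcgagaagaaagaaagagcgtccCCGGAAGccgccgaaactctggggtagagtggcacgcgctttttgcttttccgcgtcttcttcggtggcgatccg
NOL7 promoter (chr6:13615085-13615384, plus strand): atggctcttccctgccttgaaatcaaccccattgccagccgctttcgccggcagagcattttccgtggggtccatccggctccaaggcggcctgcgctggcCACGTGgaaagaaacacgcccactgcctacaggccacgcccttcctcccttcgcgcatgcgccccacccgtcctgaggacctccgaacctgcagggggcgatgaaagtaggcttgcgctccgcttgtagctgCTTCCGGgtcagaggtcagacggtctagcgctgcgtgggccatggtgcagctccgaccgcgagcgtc
NOP14 promoter (chr4:2963357-2963656, minus strand): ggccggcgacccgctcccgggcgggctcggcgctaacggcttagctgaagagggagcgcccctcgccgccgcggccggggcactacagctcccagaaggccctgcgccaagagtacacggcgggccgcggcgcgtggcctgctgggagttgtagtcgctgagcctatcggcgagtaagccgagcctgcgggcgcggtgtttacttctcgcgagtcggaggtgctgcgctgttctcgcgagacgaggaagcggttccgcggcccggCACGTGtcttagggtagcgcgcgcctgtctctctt
In these 6 windows CACGTG stood in EXOSC5 at positions -89 and 15 from the start site, in POLR3C at -196, in NOL7 at -149 and in NOP14 at 16. The match in EXOSC8 was at -247, and the ETS core was at 9 in RRP15, at -25 in POLR3C and at -17 in NOL7.

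The small subunit processome had 21 tested members, of which 8 fell and 2 rose, with a median log2 change of -0.23. These counts are 38.1% and 9.52%, against 9.72% lower and 11.4% higher over all genes tested. NOL7, a nucleolar protein needed for early processing of small subunit RNA, had 50.3, 48.6 and 56.3 CPM in knockout libraries against 82.9, 67.3 and 86.5 CPM in wild-type libraries. The groups did not overlap, and the log2 change was -0.61 ± 0.11 (SE; adjusted p = 0.0150). NOL7 shares 347 exon bases with RANBP9 on the other strand, which was also called lower (-0.30), and it is not known whether reads were assigned by strand. NOP14, which assembles with the processome core, had 203, 204 and 214 CPM in knockout against 255, 239 and 260 CPM in wild-type libraries. Its fall was smaller and again without overlap, at -0.28 ± 0.06 (adjusted p = 0.0216). RRP12, a HEAT-repeat factor that accompanies the pre-small subunit, had 68.0, 69.1 and 75.7 CPM in knockout against 89.7, 83.3 and 88.7 CPM in wild-type libraries (-0.30 ± 0.07, adjusted p = 0.0267). The other falls were those of UTP20 (-0.53), RRP9 (-0.34), which binds the U3 RNA, UTP6 (-0.30) and UTP25 (-0.26). The largest fitted fall in this set was that of UTP14C, the retrogene copy of UTP14A. It had 6.04, 5.53 and 9.08 CPM in knockout and 12.6, 12.3 and 15.2 CPM in wild-type libraries (-0.95 ± 0.21, adjusted p = 0.0241). This call is uncertain, because UTP14C shares 4100 exon bases with ALG11 on the same strand. With the reads of both summed the change was -0.14 (adjusted p = 0.197). UTP14A itself, the parent gene on the X chromosome, had 62.3, 67.1 and 62.9 CPM in knockout against 75.0, 69.3 and 70.8 CPM in wild-type libraries. Its groups did not overlap, and it did not pass (-0.16 ± 0.06, adjusted p = 0.117). None of the 8 was called when wild-type replicate 1 was left out, where adjusted p ran from 0.0722 (NOL7) to 0.143 (RRP9), or when wild-type replicate 3 was left out (0.0624 for NOL7 to 0.149 for UTP25). NOL7 kept its call in the other 4 such fits, and each of the other 7 missed the threshold in at least 1 of the fits without knockout replicate 1 or knockout replicate 2, as NOP14 did in both (adjusted p = 0.0659 and 0.0516). UTP20 and UTP6 also missed it without wild-type replicate 2 (adjusted p = 0.0698 and 0.0556).

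Against the main direction, RRP36 and NOP9 rose. RRP36, which acts in early cleavage of the precursor, had 59.5, 58.1 and 59.0 CPM in knockout against 46.1, 50.5 and 49.1 CPM in wild-type libraries (0.28 ± 0.06, adjusted p = 0.0254). NOP9, an RNA-binding Pumilio-repeat protein, had 104.5, 98.4 and 106 CPM in knockout against 75.7, 90.5 and 79.9 CPM in wild-type libraries (0.33 ± 0.08, adjusted p = 0.0328). Neither gene's groups overlapped. NOP9 shares 1954 exon bases with CIDEB on the other strand, whose fitted change was -0.0030. The remaining 11 members did not pass. They include UTP4 (-0.30 ± 0.12), UTP15 (-0.23 ± 0.08) and NOL11 (-0.12 ± 0.08), which belong to the complex that links early processing to transcription of the precursor, and NOL6 (-0.045 ± 0.06), UTP3 (0.054 ± 0.07) and RRP7A (0.0027 ± 0.05). UTP23, also not called (-0.28 ± 0.10), shares 518 exon bases with RAD21 on the other strand, which was called lower (-0.62). By TPM, which corrects for length, UTP6 was the most abundant of the set, at 85.9 ± 7.68 TPM in knockout and 95.6 ± 4.90 TPM in wild type (SD, n = 3 each), and UTP14C the least, at 1.15 ± 0.283 and 2.14 ± 0.237 TPM in knockout and wild type. Of the UTP6 reads, 32.1 to 37.3% in knockout and 33.5 to 34.6% in wild-type libraries were assigned to protein-coding transcripts, and with these alone its change was -0.27 (adjusted p = 0.153). With wild-type replicate 1 left out, adjusted p was 0.116 for RRP36 and 0.128 for NOP9, and neither was called without wild-type replicate 3, knockout replicate 1 or knockout replicate 2 (0.0556 to 0.0941 for RRP36 and 0.0540 to 0.123 for NOP9). NOP9 also missed the threshold without knockout replicate 3 (0.0640).

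**Figure D3:**
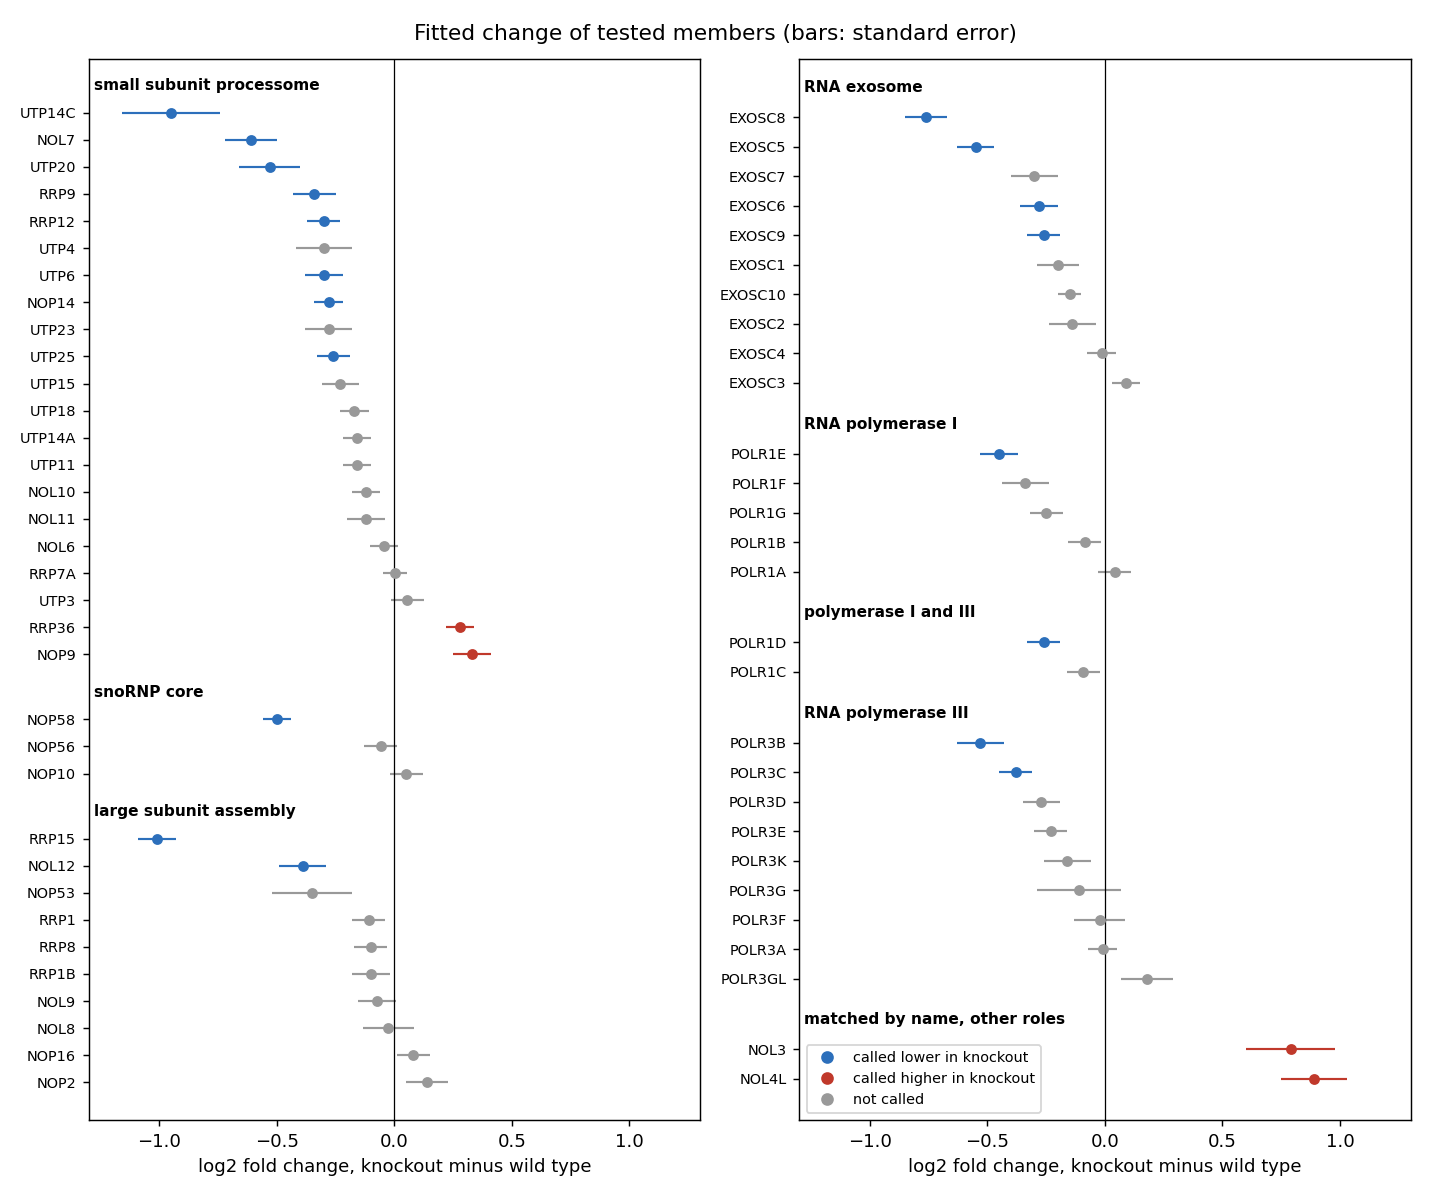
Points give the fitted log2 change (knockout minus wild type) of 62 of the 63 tested members by role, with bars for the standard error, in blue for 19 called lower, red for 4 called higher and grey for the rest. Most points lie left of 0, with RRP15 farthest left at -1.01 and NOL4L farthest right at 0.89.

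The core proteins of snoRNPs, the particles that guide methylation and pseudouridylation of ribosomal RNA, include the paralogs NOP58 and NOP56. NOP58 had 137, 138 and 130 CPM in knockout against 196, 182 and 197.5 CPM in wild-type libraries. The lowest wild-type library lay well above the highest knockout library, and the log2 change was -0.50 ± 0.06 (adjusted p = 0.00810). NOP56, its partner in the methylation particle, had 274, 286 and 315 CPM in knockout against 299, 307 and 305 CPM in wild-type libraries. These overlapped, with a change of -0.058 ± 0.07 (adjusted p = 0.572), and the difference between the paralogs was not tested. The reads of NOP56 were spread over many transcripts: 27.1 to 36.2% in knockout and 38.03 to 41.8% in wild-type libraries were assigned to protein-coding transcripts. With the effective length offset, which follows such shifts, its change was 0.081. NOP10, of the pseudouridylation particle, had 62.0, 61.8 and 70.0 CPM in knockout and 61.2, 62.2 and 63.9 CPM in wild-type libraries, which overlapped (0.050 ± 0.07, adjusted p = 0.655). By TPM, NOP56 was the most abundant of the 3, at 299 ± 15.4 TPM in knockout and 272.5 ± 6.54 TPM in wild type. NOP58 kept its call with each library left out except wild-type replicate 1 (adjusted p = 0.0510).

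Among 10 members that act on the large subunit, 2 fell (20%, against 9.72% of all genes tested), and RRP15 fell the most of all 63. RRP15 (chr1:218285287-218337983, plus strand) encodes a nucleolar protein of early large subunit maturation. It had 13.0, 14.5 and 13.1 CPM in knockout libraries against 27.1, 26.5 and 28.1 CPM in wild-type libraries. In CPM every wild-type library held close to the same amount, as did every knockout library, and the levels were 2.02-fold apart (-1.01 ± 0.08, adjusted p = 0.00731). In TPM the knockout libraries were less alike. RRP15 stood at 1.535, 3.48 and 3.13 TPM there and at 5.20, 5.09 and 5.36 TPM in wild-type libraries, without overlap. A transcript of 7765 bases, ENST00000366932.4, was assigned 97.7% of its reads. Its adjusted p was 0.0666 under the effective length offset and 0.0503 with wild-type replicate 1 left out (-1.02), and the call was kept in the other 19 alternative fits. NOL12, a nuclease of ribosomal RNA maturation, had 15.6, 14.5 and 17.9 CPM in knockout against 20.9, 21.2 and 20.9 CPM in wild-type libraries (-0.39 ± 0.10, adjusted p = 0.0344). The groups did not overlap, but 59.4% of its reads were assigned to a nonsense-mediated decay transcript, ENST00000438329.5, and with protein-coding transcripts alone the change was -0.19 (adjusted p = 0.479). NOL12 passed with knockout replicate 3 left out and with none of the other libraries left out (adjusted p from 0.0717 to 0.121).

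The other 8 members of the large subunit set did not pass. NOP53, which brings the exosome to the precursor in yeast, was the most abundant member of all, at 424 ± 99.3 TPM in knockout and 516 ± 26.79 TPM in wild type (SD, n = 3 each). It had 604, 413 and 682.5 CPM in knockout libraries against 710, 700 and 759 CPM in wild-type libraries. All knockout libraries were lower, knockout replicate 2 by far the most, and the change was -0.35 ± 0.17 (adjusted p = 0.183). NOP2, a methyltransferase of large subunit RNA, had 93.8, 111 and 96.7 CPM in knockout and 98.9, 91.3 and 84.1 CPM in wild-type libraries. These overlapped (0.14 ± 0.09, adjusted p = 0.326), and NOP2 shares 2550 exon bases with a read-through gene on the same strand. The paralogs RRP1 and RRP1B had changes of -0.11 ± 0.07 and -0.10 ± 0.08 with overlapping groups (adjusted p = 0.286 and 0.383). RRP8 (-0.10 ± 0.07), a methyltransferase, NOL9 (-0.074 ± 0.08), a kinase that acts on spacer ends, NOL8 (-0.025 ± 0.11) and NOP16 (0.080 ± 0.07) were near 0. Of these, RRP8 did not overlap between groups, and it passed in 1 of the 21 alternative fits. Protein-coding transcripts were assigned 68.2 to 72.2% of the RRP8 reads in knockout and 77.8 to 79.6% in wild-type libraries.

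The RNA exosome is a barrel of 6 ring subunits (EXOSC4 to EXOSC9) under a cap of 3 RNA-binding subunits (EXOSC1 to EXOSC3), joined in the nucleus by the nuclease EXOSC10. Of the 10 genes 4 fell (40%, against 9.72% of all genes tested), and all 4 encode ring subunits. EXOSC8 (chr13:36998816-37009613, plus strand) had 59.3, 50.3 and 59.95 CPM in knockout against 99.9, 90.4 and 96.7 CPM in wild-type libraries, without overlap (-0.76 ± 0.09, adjusted p = 0.00810). EXOSC5 (chr19:41386374-41397479, minus strand) had 48.6, 45.9 and 50.5 CPM in knockout against 73.4, 64.7 and 74.3 CPM in wild-type libraries, also without overlap (-0.55 ± 0.08, adjusted p = 0.00981). These were the largest fitted falls in the complex. EXOSC9 had 61.2, 63.8 and 62.5 CPM in knockout against 79.9, 70.1 and 74.6 CPM in wild-type libraries (-0.26 ± 0.07, adjusted p = 0.0389). EXOSC6 had 68.7, 69.8 and 79.8 CPM in knockout against 90.5, 85.2 and 88.9 CPM in wild-type libraries (-0.28 ± 0.08, adjusted p = 0.0440). Both lay near the threshold, and each passed in 9 of the 21 alternative fits. Of the fits with a library left out, EXOSC9 passed in that without wild-type replicate 2 (adjusted p in the others from 0.0537 to 0.150) and EXOSC6 in that without knockout replicate 3 (0.0615 to 0.155). EXOSC8 missed the threshold in that without wild-type replicate 1 (0.0503), and EXOSC5 there and in that without wild-type replicate 3 (0.0555 and 0.0505).

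The ring subunits that did not pass were EXOSC7, at -0.30 ± 0.10 with groups that did not overlap (adjusted p = 0.0707), and EXOSC4, at -0.014 ± 0.06 with overlapping groups (adjusted p = 0.896). EXOSC4 passed in 1 of the alternatives, that with a GC trend removed (-0.19, adjusted p = 0.0498). With all 6 libraries and all transcripts, 0 of the 3 cap subunits passed in edgeR (0 at an unadjusted p under 0.05) or in DESeq2, and EXOSC2 passed with protein-coding transcripts alone (-0.34, adjusted p = 0.0464). Their changes were -0.20 ± 0.09 for EXOSC1, -0.14 ± 0.10 for EXOSC2 and 0.090 ± 0.06 for EXOSC3. EXOSC10 had 100.3, 104 and 103 CPM in knockout against 114, 113 and 113 CPM in wild-type libraries, which did not overlap but did not pass (-0.15 ± 0.05, adjusted p = 0.0853). The difference between ring and cap was not tested. In TPM summed over all transcripts, EXOSC2 was the most abundant subunit in knockout cells and EXOSC8 in wild-type cells. Of the EXOSC2 reads, 33.3 to 36.65% in knockout and 36 to 44.2% in wild-type libraries were assigned to protein-coding transcripts. EXOSC8 stood at 71.3 ± 7.18 TPM in knockout and 116.5 ± 8.63 TPM in wild type, and EXOSC2 at 83.3 ± 7.45 TPM in knockout and 88.3 ± 6.51 TPM in wild type (SD, n = 3 each). EXOSC6 was the lowest, at 13.1 ± 0.730 TPM in knockout and 15.2 ± 0.531 TPM in wild type. Of the EXOSC8 reads 40.1% were assigned to a retained-intron transcript, ENST00000490537.6, and 26.5% to the coding transcript ENST00000389704.4, and the estimate was lower in all 3 knockout libraries for both. EXOSC8 shares 302 exon bases with SUPT20H on the other strand (0.17, not called), and EXOSC9 shares 254 with CCNA2 (-0.22, not called).

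**Figure D4:**
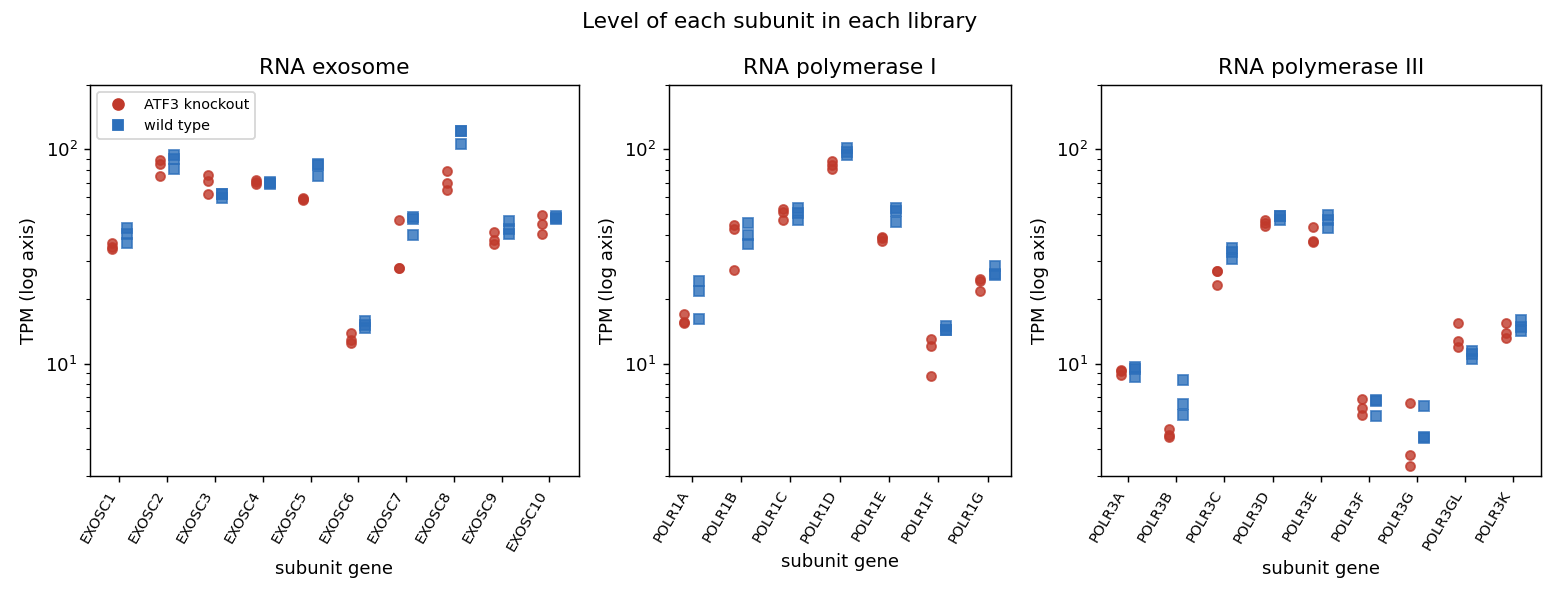
Each point is the TPM of a subunit gene in a library (log axis), with red circles for knockout left of blue squares for wild type, for the exosome, RNA polymerase I with the subunits shared with polymerase III, and subunits of RNA polymerase III. The circles of EXOSC8, EXOSC5, POLR1E, POLR3B and POLR3C lie below all squares of the same gene.

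RNA polymerase I had 5 tested subunits, of which 1 fell (20%, against 9.72% of all genes tested). POLR1E, which forms with POLR1G the dimer that helps initiation, had 67.7, 68.6 and 73.6 CPM in knockout against 100.2, 87.2 and 99.5 CPM in wild-type libraries. The groups did not overlap, and the change was -0.45 ± 0.08 (adjusted p = 0.0131). Its partner POLR1G had 56.6, 53.4 and 53.9 CPM in knockout against 61.7, 70.0 and 62.95 CPM in wild-type libraries, again without overlap, and missed the threshold (-0.25 ± 0.07, adjusted p = 0.0512). The stalk subunit POLR1F also had no overlap, with 30.2, 35.4 and 30.5 CPM in knockout against 39.5, 37.4 and 44.8 CPM in wild-type libraries (-0.34 ± 0.10, adjusted p = 0.0531). DESeq2 called both, at adjusted p = 0.0211 for POLR1G and 0.0204 for POLR1F. POLR1G shares 1593 exon bases with ERCC1 on the other strand, which was also fitted lower (-0.38, not called). The catalytic subunits POLR1A and POLR1B overlapped between groups, at 0.041 ± 0.07 and -0.086 ± 0.07 (adjusted p = 0.696 and 0.415). For POLR1A the sign turned with the effective length offset (-0.42), and its TPM was 16.1 ± 0.818 in knockout and 20.7 ± 4.10 in wild type (SD, n = 3 each), the opposite order to its CPM. POLR1H, the cleavage subunit, is encoded on chromosome 6 and was listed at 0 in every library, as was NOL4, known from neurons. Since every cell needs POLR1H, only the listing can be reported. POLR1E was no longer called when wild-type replicate 1 was left out (adjusted p = 0.0689), or wild-type replicate 3 (0.0609).

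Of the pair shared by polymerases I and III, POLR1D fell and POLR1C did not pass. POLR1D had 102, 107 and 106 CPM in knockout against 131, 117 and 130 CPM in wild-type libraries, without overlap (-0.26 ± 0.07, adjusted p = 0.0346). POLR1C, with which it dimerises, had 52.0, 53.2 and 56.3 CPM in knockout against 60.4, 56.2 and 55.7 CPM in wild-type libraries, which overlapped (-0.093 ± 0.07, adjusted p = 0.358). In TPM they stood at 84.7 ± 3.78 and 97.7 ± 3.93 for POLR1D in knockout and wild type, and at 50.2 ± 2.92 and 50.1 ± 3.10 for POLR1C in knockout and wild type. POLR1D did not pass without knockout replicate 1, knockout replicate 2, wild-type replicate 1 or wild-type replicate 3 (adjusted p from 0.0661 to 0.142).

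Among the subunits of RNA polymerase III, POLR3B and POLR3C fell. POLR3B, the second largest catalytic subunit, had 21.8, 20.1 and 21.0 CPM in knockout against 33.9, 26.6 and 30.5 CPM in wild-type libraries (-0.53 ± 0.10, adjusted p = 0.0170). POLR3C, of the initiation trimer, had 53.7, 48.5 and 51.2 CPM in knockout against 68.1, 63.3 and 68.2 CPM in wild-type libraries (-0.38 ± 0.07, adjusted p = 0.0145). In both genes each knockout library was below each wild-type library. POLR3D and POLR3E, which pair in the subcomplex for initiation and termination, were also lower without overlap and did not pass (-0.27 ± 0.08 and -0.23 ± 0.07, adjusted p = 0.0551 and 0.0671). The largest subunit POLR3A was close to level, with 64.0, 61.7 and 61.9 CPM in knockout and 62.8, 64.4 and 61.8 CPM in wild-type libraries (-0.010 ± 0.06, adjusted p = 0.919). POLR3F (-0.023 ± 0.11) and POLR3K (-0.16 ± 0.10) overlapped between groups. In TPM, POLR3D was the most abundant, at 45.3 ± 1.32 TPM in knockout and 48.1 ± 1.23 TPM in wild type, and POLR3G the least, at 4.55 ± 1.76 TPM in knockout and 5.14 ± 1.05 TPM in wild type (SD, n = 3 each). POLR3B and POLR3C were no longer called when wild-type replicate 1 was left out (adjusted p = 0.0734 and 0.0739), or wild-type replicate 3 (0.0695 and 0.0670).

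POLR3G and POLR3GL encode alternative versions of the same subunit, and POLR3G is known as the form of stem and tumour cells. POLR3G had 8.81, 11.96 and 7.75 CPM in knockout and 10.6, 9.42 and 10.8 CPM in wild-type libraries, which overlapped (-0.11 ± 0.18, adjusted p = 0.706). POLR3GL had 12.7, 15.1 and 12.5 CPM in knockout and 12.3, 11.8 and 11.4 CPM in wild-type libraries, which did not overlap (0.18 ± 0.11, adjusted p = 0.286). The log2 ratio of POLR3G to POLR3GL within a library was -0.53, -0.34 and -0.70 in knockout and -0.22, -0.33 and -0.08 in wild type. All knockout ratios were lower, by 0.31 on average on the log2 scale, and the exact two-sided permutation p was 0.1, the smallest that 3 against 3 libraries allow. From TPM the ratios overlapped (exact p = 0.2). POLR3G shares 260 exon bases with MBLAC2 on the other strand, which was called lower (-0.50).

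The tested members matched by name but outside these processes are NOL3, an inhibitor of cell death, and NOL4L, a nucleolar protein 4 relative. Both rose, and they were the largest rises among the members. NOL4L had 35.5, 34.2 and 27.9 CPM in knockout against 16.5, 20.5 and 15.5 CPM in wild-type libraries (0.89 ± 0.14, adjusted p = 0.0109). NOL3 had 4.00, 4.91 and 3.67 CPM in knockout against 2.60, 2.495 and 2.19 CPM in wild-type libraries (0.79 ± 0.19, adjusted p = 0.0311). Neither overlapped between groups. For NOL4L the estimated reads of ENST00000359676.9 were 456.5, 525 and 466 in knockout and 82.8, 205 and 0 in wild-type libraries, while those of ENST00000621426.6 overlapped. The change of ENST00000359676.9 was 2.38 ± 1.37 (SE) and was not called (edgeR on transcripts, adjusted p = 0.494). ENST00000621426.6 was assigned 78.0, 60.7 and 94.3% of the reads in wild-type libraries, so their division between transcripts was uneven. NOL3 is low and shares 134 exon bases with MATCAP1 on the other strand, which also rose (0.91). Leaving these genes aside, 20 of 61 tested members with a role in the named complexes fell and 2 rose. These are 32.8% and 3.28%, against 9.72% lower and 11.4% higher over all genes tested. NOL4L was no longer called when wild-type replicate 1 was left out (adjusted p = 0.0613), or wild-type replicate 3 (0.0516). NOL3 stayed called with knockout replicate 3 left out and with none of the other libraries left out (adjusted p from 0.0610 to 0.117).

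Single transcripts gave no calls. Of the 50394 transcripts tested edgeR called 0 (0%), and of 263 transcripts of the members 60 had an unadjusted p under 0.05, 50 of them lower in knockout cells. That is 22.8% of the members' transcripts, against 15.7% of all transcripts tested. The smallest adjusted p was 0.0562.

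The same processes and the MYC network were looked at through 155 further genes. They were chosen by role from general knowledge and with earlier results of these data known. Of the 150 tested, 57 fell and 5 rose (38% and 3.33%, against 9.72% and 11.4% of all genes tested). The median log2 change was -0.20. Among other genes of large subunit assembly 28 of 48 fell (58.3%) and 1 rose, with a median of -0.27. MAK16 (-0.67 ± 0.07, adjusted p = 0.00787), of early large subunit particles, and RSL24D1 (-0.75 ± 0.08, adjusted p = 0.00801), a placeholder for a ribosomal protein, had the smallest p, followed by NPM1 (-0.52 ± 0.07, adjusted p = 0.00870), the abundant nucleolar chaperone. NPM1 had 1151, 1174 and 1226 CPM in knockout against 1757, 1571 and 1770 CPM in wild-type libraries. FTSJ3, a methyltransferase of the precursor, rose (0.46 ± 0.08, adjusted p = 0.0133). Other genes of small subunit assembly, in the processome or later, fell in 15 of 35 cases (42.9%, median -0.22), led by the kinase RIOK1 (-0.47), the helicase DDX49 (-0.34) and WDR43 (-0.49). Other snoRNP genes fell in 5 of 11 cases (45.5%, median -0.22), among them the methyltransferase FBL (-0.38), the pseudouridine synthase DKC1 (-0.50) and the assembly factor NUFIP1 (-0.40).

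Nucleases and cofactors of the exosome fell in 5 of 17 cases (29.4%, median -0.16), with DIS3L (-0.38), the cytoplasmic catalytic subunit, ZCCHC8 (-0.40) and SKIC8 (-0.29) first by p. Among 12 tested polymerase I factors and shared subunits 8.33% fell and 8.33% rose: TAF1B fell (-0.54 ± 0.11, adjusted p = 0.0173) and POLR2L rose (0.47 ± 0.14, adjusted p = 0.0496), and UBTF, which activates ribosomal DNA, did not pass (-0.15 ± 0.05, adjusted p = 0.0948). Of 18 polymerase III factors 11.1% fell and 5.56% rose: GTF3A (-0.44 ± 0.08), which binds the 5S gene, and SNAPC1 (-0.49 ± 0.12) fell and GTF3C1 rose (0.54 ± 0.11, adjusted p = 0.0188), with a median of -0.084. MYC, a known activator of ribosome production, had 673, 645 and 824.5 CPM in knockout against 839.5, 787 and 913.5 CPM in wild-type libraries. The groups overlapped and the change did not pass (-0.25 ± 0.11, adjusted p = 0.145). Of 10 tested genes of the MYC network, MNT fell (-0.26) and MLXIP (0.46) and MXD4 (0.44) rose, which is 10% lower and 20% higher. For the MYC network and the polymerase I and III factors alike, the shares over all genes tested were 9.72% lower and 11.4% higher. Without wild-type replicate 1 edgeR called 0 of these further genes, as of all genes, and DESeq2 called 42 lower and 3 higher. Without wild-type replicate 3 edgeR called 7 lower. Of all genes, DESeq2 called 953 lower (4.84%) and 1077 higher in the former fit, and edgeR 148 (1.1%) and 210 in the latter.

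**Figure D5:**
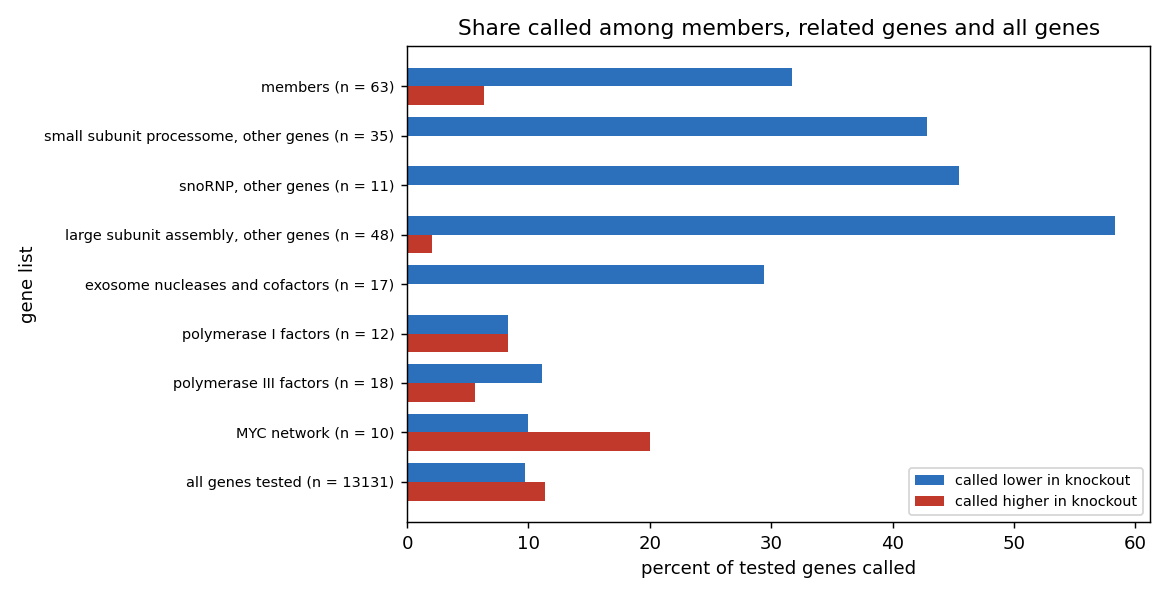
Bars give the percent of tested genes called lower (blue) and higher (red) in knockout cells for the members, for 7 lists of further genes and for all genes tested. The bars for lower genes are longest for large subunit assembly (58.3%), and 31.7% for the members against 9.72% for all genes.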

How the data were processed

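Polyadenylated RNA of 6 libraries was prepared with a stranded mRNA kit, per the labels. The authors deposited a transcript table for each library with estimated counts of reads and TPM, a level corrected for transcript length (file headers). The submitters' processing notes name Salmon 1.6.0, FastQC 0.11.9 and hg38. The sources used here give neither the transcriptome release nor the use of strand. Of 177456 transcripts 167027 were joined to genes of GENCODE 29 (GRCh38), and the 10429 without a gene (3.59 to 3.82% of reads) were left out. Estimated counts were summed per gene and rounded.

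Genotype alone was tested with edgeR 4.0.16 (quasi-likelihood, R 4.3.3), with TMM factors, the filterByExpr filter (minimum 10 reads) and Benjamini-Hochberg adjustment at 0.05. CPM are TMM-scaled, and changes are log2 knockout minus wild type. The scripts were tested on simulated data. TPM were summed per gene and used as levels, not in the gene test. The effective length offset corrects each gene for the mean effective length of its estimated mix of transcripts. Alternatives included DESeq2 1.42.0, limma 3.58.1, other scalings, filters and left-out libraries, and, chosen after seeing the data, GC and length trends, summed overlapping genes and DESeq2 without wild-type replicate 1.

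The members and lists were chosen with earlier results of these data known. Named genes were, per role, up to 4 called members per direction by smallest p, the most abundant and the most changed member, all exosome and polymerase subunits, paralog pairs, untested members, ATF3, up to 3 called genes per further list, and MYC. Genes named beside these, such as other members, markers and overlapping genes, were chosen after their values were seen. A gene covered by this rule is counted but its values are not reported here. Protein sequences were not used here.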

Additional observations from a re-analysis of the deposited data

How the results depend on the processing

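Over the 21 alternative fits the 24 called members kept their direction, which leaving out a library could hardly turn, since their groups did not overlap. With the effective length offset edgeR called 10 members lower and 1 higher, 28 lower and 1 higher of the further pathway genes, and 661 lower and 722 higher of all genes. DESeq2 without wild-type replicate 1 called 2 members and 3 further genes higher. Fits with 1 library left out called 0 to 21 members lower and 0 to 3 higher (4 with all libraries), 0 to 57 further genes lower and 0 to 5 higher, and 0 to 1388 of all genes lower and 0 to 1370 higher. Other scalings called 16 to 22 members lower and 4 higher, and of all genes 1013 to 1410 lower (7.71 to 10.7%) and 1314 to 1844 higher.

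With a replicate block edgeR called 14 members lower and 1 higher, and of all genes 1093 lower (8.32%) and 1225 higher. Whether the numbers pair the samples cannot be told from deviations of 3 libraries per group, which sum to 0 within a group. Same-numbered libraries correlated at -0.092, 0.106 and 0.196 in their deviations from the group means. Knockout replicate 1 correlated best with wild-type replicate 2 (0.169), while knockout replicates 2 and 3 each correlated best with the wild-type library of the same number.

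The sign turned for 12 members, none of them called with all libraries, and the cause was not tested. With library totals alone the log2 change was 0.032 for EXOSC4, 0.0020 for NOL6, 0.023 for NOL8, 0.036 for POLR3A and 0.023 for POLR3F. With the effective length offset it was 0.0045 for NOL8, 0.081 for NOP56, -0.42 for POLR1A, -0.14 for RRP7A and 0.093 for RRP8. With a GC trend removed it was 0.065 for NOL8, -0.012 for NOP16, -0.022 for POLR1A, 0.066 for POLR3F, 0.024 for POLR3G and -0.13 for RRP7A. With a length trend removed it was 0.00094 for EXOSC4 and -0.039 for RRP7A, and with protein-coding transcripts alone 0.0058 for POLR3A. RRP7A was also at -0.0042 with RLE size factors, -0.0196 with upper-quartile factors, -0.0043 with DESeq2 and -0.0074 with DESeq2 without wild-type replicate 1. With 1 library left out the change ran from -0.063 to 0.0072 for EXOSC4, from -0.12 to 0.082 for NOL8, from -0.022 to 0.080 for NOP10, from -0.0040 to 0.083 for POLR1A, from -0.027 to 0.0041 for POLR3A, from -0.095 to 0.035 for POLR3F, from -0.31 to 0.011 for POLR3G and from -0.0069 to 0.0061 for RRP7A. The difference in the log2 ratio of POLR3G to POLR3GL ran from -0.40 to -0.22. Transcript calls were not repeated under alternatives. Depth limits UTP14C, NOL3 and POLR3G most, which had the fewest reads of the tested members, and leaving out a library leaves 3 residual degrees of freedom.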
